A study of Mus musculus with 30 samples.

Results

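Mouse cardiac fibroblasts from 12-month-old hearts were compared with those from 3-month-old hearts, with 2 bulk RNA-seq libraries at each age, which are 4 of the 30 samples of the series. The cells were primary wild-type fibroblasts kept in culture for 3 days, so each library reports on cultured cells and not on the intact heart. Libraries were chosen by their age labels, and the file heads the columns of the older group as 13 months, where the sample labels give 12. The study asked why adult and aged cardiac fibroblasts resist conversion to induced cardiomyocytes by reprogramming factors, and its bulk libraries also hold fibroblasts from neonatal and 24-month-old mice, LacZ control cells and cells given reprogramming factors. Fibroblasts of 24 months (2 libraries, 3 days in culture) and LacZ cells of 3 and 18 months (2 libraries each, wild-type cells taken 3 days after the control gene was delivered) are described here only where they bear on the 12-month values. The neonatal and 24-month fibroblast libraries also enter the fit behind each fibroblast p-value. The labels do not say whether the 2 libraries of a group came from different animals or how many animals were pooled. A p-value here therefore reflects scatter between libraries of a group, estimated over all libraries of the fit (8 for the fibroblasts). That scatter may be technical.

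Cardiac fibroblasts make and remodel the collagen and elastic matrix of the heart, secrete chemokines and growth factors, and act as sentinels that respond to viral nucleic acid and to type I interferon. Interferon binds its receptor, activates transcription factors in the cell and switches on a large set of antiviral genes. Oxidants and electrophiles release the factor NRF2 from KEAP1, and NRF2 then induces genes for glutathione synthesis and detoxification. The factor p53 answers DNA damage by inducing the cell cycle inhibitor p21 (gene Cdkn1a) and other targets, while mitotic genes are read in cells that divide.

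Depth was 17283764 to 22311330 counts per fibroblast library. Levels are in CPM (counts scaled to a common depth with edgeR's TMM factors), where 1 CPM was at least 17.3 counts. The 3- and 12-month libraries had the same sex signal, with Xist at 0.286 to 0.479 CPM and the Y-linked gene Ddx3y at 125 to 133 CPM in the 4 libraries. In the 24-month libraries Xist was at 775 and 833 CPM and Ddx3y at 40.5 and 38.1 CPM, so each held signal of both sexes. The difference between 24 and 12 months therefore cannot be told apart from a difference in the sex of the mice. The 2 libraries of a group differed by more than sampling noise, with a chi-square per degree of freedom of 2.44 at 3 months and 2.67 at 12 months.

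At 12 months 2136 of 16466 tested genes were higher and 2555 were lower than at 3 months, by edgeR's quasi-likelihood test at an adjusted p (Benjamini-Hochberg) under 0.05. A gene that passes this test is said here to rise or fall. Risers were 13% and fallers 15.5% of the genes tested, 28.5% together. Most changes were small, with a median size of 0.389 on the log2 scale among the genes called, and 228 genes rose (1.38%) and 476 fell (2.89%) by 2-fold or more, 4.28% together. The median log2 fold change (log2FC, 12 minus 3 months) of all genes tested was -0.0022. DESeq2 called 1414 risers and 1903 fallers on the same genes, and without the second 12-month library edgeR called 1402 and 1780. Scaled by library totals alone, 2406 genes rose and 2324 fell, so the excess of fallers is not kept under that scaling (50.9% of calls were rises, and the median log2FC of all genes was 0.0172).

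The 12 largest falls by the rule for named genes were led by matrix, growth and interferon genes. Nrk, a kinase gene of the X chromosome, fell from 8.68 and 8.43 CPM at 3 months to 0.688 and 0.697 CPM at 12 months (log2FC -3.62 ± 0.20, adjusted p = 1.53e-15). Igfbp5, a secreted binding protein of insulin-like growth factors, fell from 32.1 and 33.1 CPM at 3 months to 3.72 and 2.98 CPM at 12 months (log2FC -3.29 ± 0.13, adjusted p = 1.41e-18). Both genes were picked for a large fall without overlap between the ages, so their separation is no added evidence. Fbn2, Robo2, Col11a1, Ptn, Gucy1a1, Ifi44, Kit, Fgl2, Frem1 and Cmpk2 made up the other falls, with log2FC from -3.25 for Fbn2, a fibrillin, to -2.24 for Cmpk2, a mitochondrial nucleotide kinase induced by interferon. Among these, Gucy1a1, a subunit of the nitric oxide receptor guanylate cyclase, fell from 77.9 and 83.9 CPM at 3 months to 14.8 and 12.5 CPM at 12 months (log2FC -2.57 ± 0.11, adjusted p = 1.49e-11).

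The 12 largest rises held 2 genes of redox defence, a chemokine and a matrix gene. Slc7a11, the cystine transporter that feeds glutathione synthesis, rose from 8.36 and 10.4 CPM at 3 months to 34.4 and 47.2 CPM at 12 months (log2FC 2.13 ± 0.15, adjusted p = 2.11e-08). Ccl11, the eosinophil chemokine eotaxin, rose from 7.38 and 5.99 CPM at 3 months to 27.0 and 26.8 CPM at 12 months (log2FC 2.00 ± 0.12, adjusted p = 3.95e-14). Ccnd1, the G1 cyclin D1, rose from 61.9 and 54.7 CPM at 3 months to 160.1 and 192 CPM at 12 months (log2FC 1.59 ± 0.079, adjusted p = 1.93e-09). The other risers of this group included Actc1, Myh6, Ltbp2, Cd24a, Htr2a, Nqo1, Gpr35 and Sema3c. Actc1 and Myh6 are cardiomyocyte markers at low levels here. Actc1 was at 0.540 and 0.958 CPM at 3 months and 3.78 and 1.89 CPM at 12 months. Myh6 was at 2.16 and 4.46 CPM at 3 months and 14.1 and 10.2 CPM at 12 months. The average level used by the naming rule includes the neonatal libraries, where both genes were far higher. Sema3c, a secreted semaphorin, rose from 37.1 and 34.5 CPM at 3 months to 99.6 and 109 CPM at 12 months (log2FC 1.55 ± 0.066, adjusted p = 3.7e-18). In each of these genes the 4 libraries split by age without overlap, as the rule requires, and 62.4% of all genes tested did so.

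The gene lists below are pathways and cell types, and their members were counted against these shares. The plot of gene lists gives their shares. Most tested members of the mitotic, interferon effector, sterol and collagen lists fell, and most of the p53, antioxidant and respiratory chain lists rose.

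**Figure D1:**
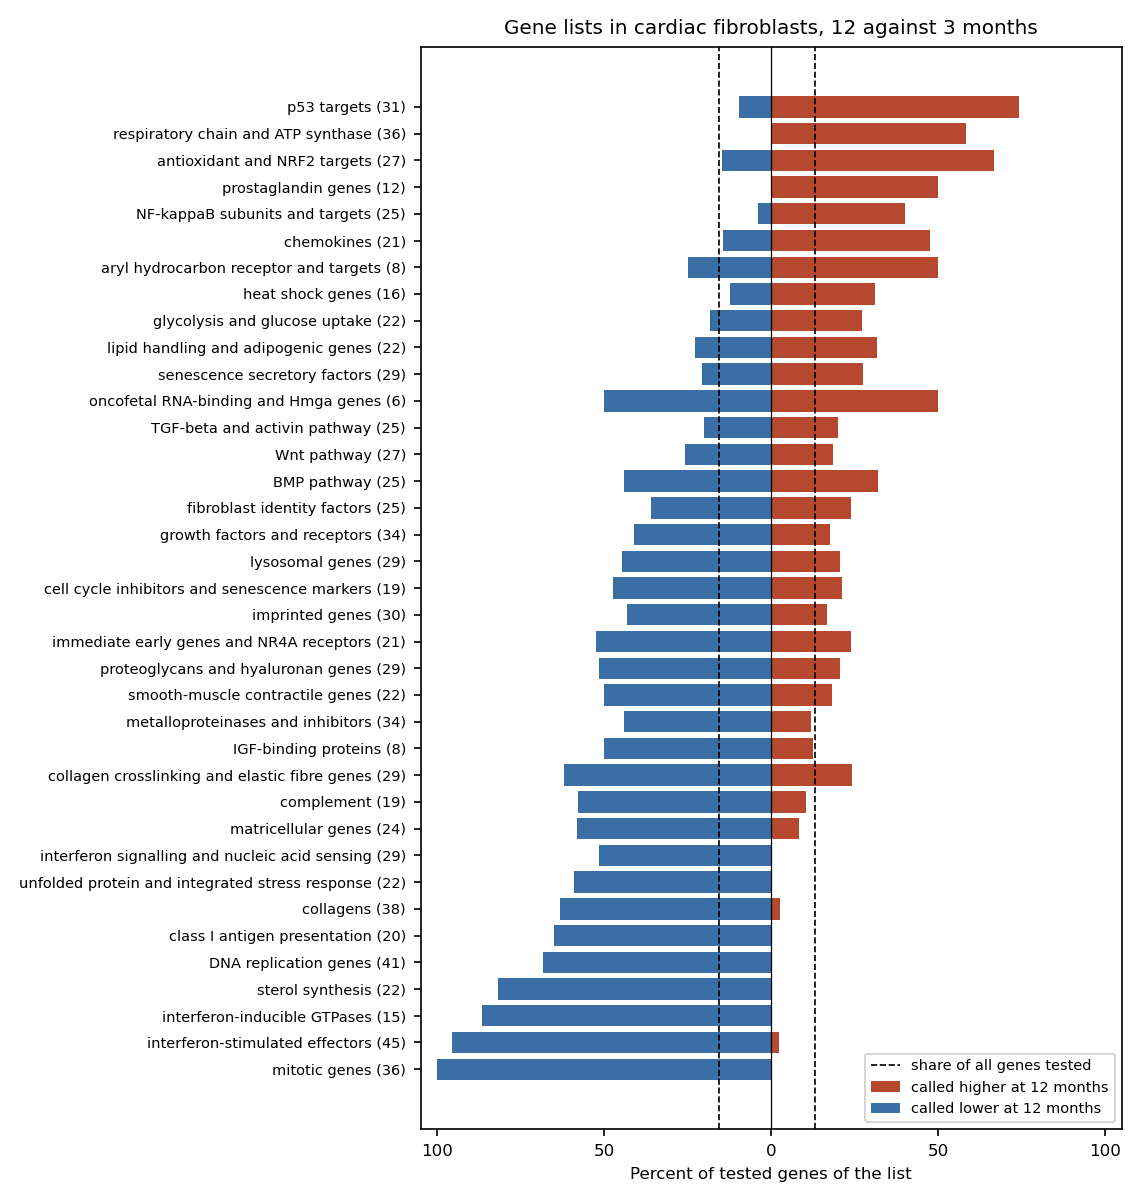
Share of tested genes of each pathway list (number tested in brackets) that were called higher (red, to the right) or lower (blue, to the left) at 12 than at 3 months. Dashed lines mark the shares over all genes tested, 13% higher and 15.5% lower, and of the 36 mitotic genes all were lower.

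Interferon acts on its target genes through the interferon-stimulated response element, whose letters were searched in the promoters of the genes described next. The motif searched was GAAA, any 2 bases and GAAA again, on both strands in the 250 bases before each RefSeq start (GRCm38.p6), and overlapping matches were kept. It lies in 14 of 33 matched interferon-stimulated effector genes (42.4%) and in 10 of 10 matched interferon-inducible GTPase genes, against 3.46% of 27025 genes with a promoter in the table. In the lists of interferon signalling and of class I antigen presentation it lies in 5 of 29 (17.2%) and 3 of 17 (17.6%) matched genes. These 5 stretches are shown because their genes recur in the results, with the matches in capitals.
Isg15: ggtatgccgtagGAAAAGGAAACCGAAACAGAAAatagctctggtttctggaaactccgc
Ifit3b: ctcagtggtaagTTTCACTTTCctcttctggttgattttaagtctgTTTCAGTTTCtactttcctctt
Igtp: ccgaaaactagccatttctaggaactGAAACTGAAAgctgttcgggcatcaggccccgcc
Irgm1: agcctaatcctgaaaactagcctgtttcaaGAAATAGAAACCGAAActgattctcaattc
Gbp3: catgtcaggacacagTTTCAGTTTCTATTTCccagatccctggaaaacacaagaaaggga
These stretches lie at chr4:156200849-156200908 (minus strand), chr19:34607757-34607824 (plus strand), chr11:58199496-58199555 (plus strand), chr11:48871421-48871480 (minus strand) and chr3:142559984-142560043 (plus strand). Matches in capitals that read TTTC are on the opposite strand, and a match of letters is no evidence that a factor bound there.

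Interferon-stimulated effectors, the proteins that block viral entry, translation and replication, fell together at 12 months. Of 45 tested members 43 fell (26 by 2-fold or more) and 1 rose, against 15.5% and 13% of all genes tested, with a median log2FC of -1.04. Their summed level was 3925 and 4139 CPM at 3 months and 1988 and 2108 CPM at 12 months. A lower level in bulk RNA can come from fewer cells of a type or from less RNA per cell, which cannot be told apart.

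Ifi44, an antiviral gene of the cytoplasm, fell from 49.4 and 42.9 CPM at 3 months to 6.02 and 10.4 CPM at 12 months (log2FC -2.47 ± 0.17, adjusted p = 5.85e-07). Isg15 (ENSMUSG00000035692), a ubiquitin-like protein attached to other proteins during infection, fell from 74.6 and 72.8 CPM at 3 months to 24.9 and 28.5 CPM at 12 months (log2FC -1.46 ± 0.071, adjusted p = 5.7e-17). Uba7, the enzyme that activates ISG15, fell from 75.5 and 72.9 CPM at 3 months to 28.6 and 30.0 CPM at 12 months (log2FC -1.34 ± 0.065, adjusted p = 6.58e-17). The modifier and its activating enzyme were both lower in each 12-month library than in either 3-month library, a lack of overlap seen in 62.4% of all genes tested. Oasl2, of the oligoadenylate synthetase family, fell from 187 and 201 CPM at 3 months to 75.1 and 87.1 CPM at 12 months (log2FC -1.26 ± 0.055, adjusted p = 2.25e-17). Zbp1, a sensor of Z-form nucleic acid, fell from 102 and 92.2 CPM at 3 months to 39.9 and 42.1 CPM at 12 months (log2FC -1.24 ± 0.062, adjusted p = 1.19e-16). Ifit3b fell from 40.6 and 49.2 CPM at 3 months to 9.05 and 14.3 CPM at 12 months (log2FC -1.92 ± 0.15, adjusted p = 1.6e-07), and reads of its near-identical neighbour may have been split between the 2 genes. The member that rose was Ifi27, with 34.0 and 38.8 CPM at 3 months and 60.6 and 66.6 CPM at 12 months (log2FC 0.81 ± 0.072, adjusted p = 1.09e-10), and Epsti1 did not pass (adjusted p = 0.178); both fall outside the naming rule and were picked after their values were seen.

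Interferon-inducible GTPases, which attack the vacuoles of intracellular pathogens, fell in 13 of 15 tested genes (9 by 2-fold or more, 0 rose, median log2FC -1.20). Igtp fell from 37.0 and 42.9 CPM at 3 months to 10.7 and 14.1 CPM at 12 months (log2FC -1.68 ± 0.11, adjusted p = 1.05e-13) and Irgm1 from 149 and 164 CPM at 3 months to 64.3 and 65.8 CPM at 12 months (log2FC -1.26 ± 0.053, adjusted p = 3.7e-18). Gbp3, a guanylate-binding protein, fell from 115 and 100.5 CPM at 3 months to 42.3 and 51.2 CPM at 12 months (log2FC -1.20 ± 0.074, adjusted p = 7.94e-12). Guanylate-binding protein and Tgtp genes have close copies, so single members of these families are less certain than the direction of the list.

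Receptors, sensors and signal carriers of the pathway had a smaller median change than its targets, a difference that was not tested. Among 29 tested genes of interferon signalling and nucleic acid sensing, 15 fell and 0 rose (2 fell by 2-fold or more, median log2FC -0.26). Irf7, the factor that amplifies interferon production, fell from 94.8 and 89.4 CPM at 3 months to 28.6 and 32.2 CPM at 12 months (log2FC -1.60 ± 0.07, adjusted p = 6.98e-18). Stat2 fell from 176 and 183 CPM at 3 months to 90.5 and 96.0 CPM at 12 months (log2FC -0.94 ± 0.05, adjusted p = 5.7e-16). The RNA sensor genes Ifih1 (MDA5) and Ddx58 (RIG-I) fell with log2FC of -0.90 ± 0.061 and -0.69 ± 0.048. The sensor regulator Dhx58 fell from 35.3 and 34.9 CPM at 3 months to 13.6 and 13.2 CPM at 12 months (log2FC -1.39 ± 0.094, adjusted p = 2.06e-13). These 5 genes are themselves induced by interferon. The receptor gene Ifnar1 (log2FC -0.10 ± 0.052, adjusted p = 0.172) and Irf3 (log2FC -0.076 ± 0.071, adjusted p = 0.475), picked after their values were seen, did not pass.

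At 24 months these genes were higher again. The test of 24 against 12 months, which shares the 12-month libraries with the comparison above, called 40 of the 45 effectors higher and 1 lower (median log2FC 0.76), 13 of the 15 GTPases higher and 0 lower (0.81), and 17 of the 29 signalling genes higher and 0 lower (0.26). Over all genes tested, 1781 (10.8%) rose and 1329 (8.07%) fell in that comparison, or 1454 and 1967 when libraries were scaled by their totals alone. Isg15 was at 64.6 and 63.5 CPM at 24 months (log2FC 1.26 for 24 minus 12 months, adjusted p = 7.71e-15), and Ifi44 at 43.4 and 41.1 CPM (log2FC 2.34 for 24 minus 12 months, adjusted p = 1.87e-06). Cmpk2 came back less far, from 4.70 and 5.72 CPM at 12 months to 9.10 and 8.27 CPM at 24 months (log2FC 0.73 for 24 minus 12 months, adjusted p = 0.00195).

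**Figure D2:**
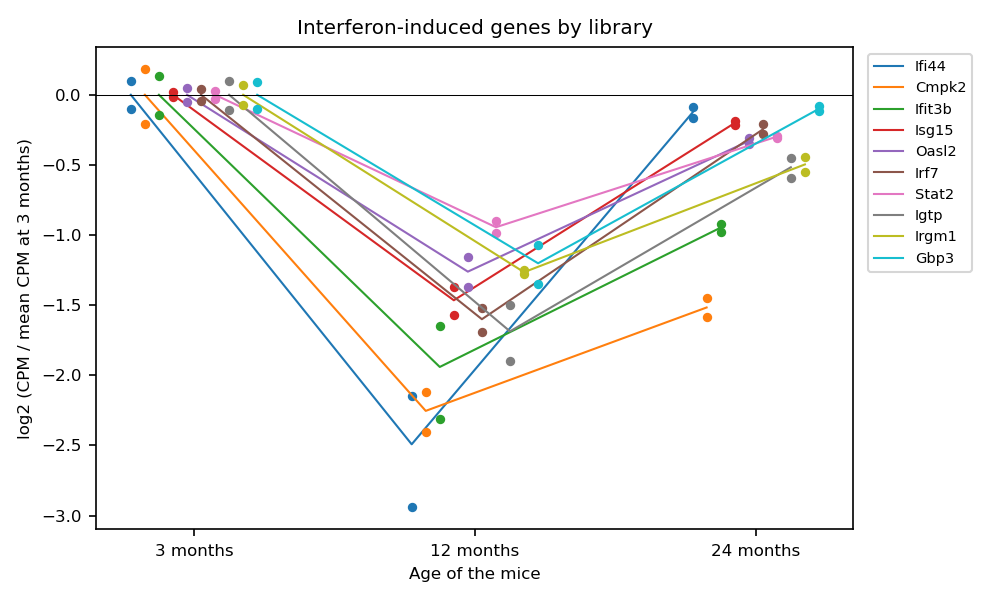
Level of 10 interferon-induced genes in each fibroblast library (points, 2 per age) at 3, 12 and 24 months, as log2 of CPM over the mean CPM at 3 months, with lines through the means. The 12-month points of all 10 genes lie below their 3-month points, and the 24-month means lie above the 12-month means.

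Class I antigen presentation, which shows peptides to killer T cells, also fell in part. Of 20 tested genes 13 fell and 0 rose (median log2FC -0.37). B2m, the light chain of every class I molecule, fell from 954 and 943 CPM at 3 months to 782 and 704 CPM at 12 months (log2FC -0.35 ± 0.048, adjusted p = 2.75e-06), and the chaperone tapasin (Tapbp) fell from 159 and 167 CPM at 3 months to 115 and 101 CPM at 12 months (log2FC -0.59 ± 0.058, adjusted p = 7.94e-09). H2-T23 fell with a log2FC of -0.47 ± 0.065 and H2-Q4 with -0.82 ± 0.068, where close copies at the locus make single Q genes uncertain. In 24 against 12 months 18 of the 20 rose and 0 fell (median log2FC 0.56). Complement genes followed, with 11 of 19 tested lower (5 by 2-fold or more), 2 higher and a median log2FC of -0.41. C4b, a component of the classical pathway, fell from 175 and 164 CPM at 3 months to 118 and 99.4 CPM at 12 months (log2FC -0.64 ± 0.056, adjusted p = 3.18e-10). The C1 inhibitor gene Serping1 fell from 679 and 708 CPM at 3 months to 481 and 430.4 CPM at 12 months (log2FC -0.61 ± 0.049, adjusted p = 1.64e-10). Cd55, which speeds the decay of complement convertases on the cell surface, rose instead from 87.5 and 81.9 CPM at 3 months to 139 and 143 CPM at 12 months (log2FC 0.74 ± 0.049, adjusted p = 1.6e-13).

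Antioxidant genes rose at 12 months. Of 27 tested genes 18 rose (8 by 2-fold or more) and 4 fell, against 13% and 15.5% of all genes tested, with a median log2FC of 0.35. The core of the antioxidant response element was searched as TGACNNNGC on both strands in the same promoter windows. It lies in 7 of 21 matched genes (33.3%), against 11.5% of all genes. The stretches of Gclm and Txnrd1 are shown because both genes make or recycle thiol reductants, and their matches, in capitals, are on the opposite strand.
Gclm: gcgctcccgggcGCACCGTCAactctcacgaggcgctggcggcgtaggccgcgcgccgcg
Txnrd1: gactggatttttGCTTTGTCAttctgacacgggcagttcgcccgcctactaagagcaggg
They lie at chr3:122245411-122245470 (plus strand) and chr10:82859102-82859161 (plus strand). Promoters were not matched for Gclc, Gsr, Gsta4, Hmox1, Prdx6 and Sod3.

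Genes of glutathione synthesis and supply rose. Gclm, the modifier subunit of the rate-limiting enzyme, rose from 90.4 and 88.4 CPM at 3 months to 188 and 209 CPM at 12 months (log2FC 1.15 ± 0.052, adjusted p = 1.19e-17), beside Slc7a11, whose values are given above. Nqo1 (ENSMUSG00000003849), a quinone reductase, rose from 14.2 and 12.3 CPM at 3 months to 37.3 and 45.0 CPM at 12 months (log2FC 1.63 ± 0.10, adjusted p = 1.46e-14). Hmox1, haem oxygenase 1, rose from 386 and 380 CPM at 3 months to 786 and 881 CPM at 12 months (log2FC 1.12 ± 0.046, adjusted p = 6.98e-18). Each of these genes was higher in both 12-month libraries than in either 3-month library, and 62.4% of all genes tested split by age without overlap. Thiol repair enzymes rose too. Txnrd1, thioredoxin reductase 1, rose from 367 and 352 CPM at 3 months to 679.9 and 741 CPM at 12 months (log2FC 0.98 ± 0.043, adjusted p = 7.02e-18), and Srxn1, sulfiredoxin 1, from 86.9 and 89.1 CPM at 3 months to 181 and 191 CPM at 12 months (log2FC 1.08 ± 0.049, adjusted p = 1.05e-17). Gsta4, a glutathione transferase for lipid peroxidation products, rose from a low level, 0.585 and 0.383 CPM at 3 months and 2.23 and 3.08 CPM at 12 months (log2FC 2.44 ± 0.37, adjusted p = 3.96e-06). The largest fall of the list was Gpx3, the secreted glutathione peroxidase, from 1071 and 1102 CPM at 3 months to 547 and 479 CPM at 12 months (log2FC -1.08 ± 0.045, adjusted p = 8.17e-18).

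The factor and its inhibitor moved little. Nfe2l2, which encodes NRF2, was at 216 and 218 CPM at 3 months and 245 and 261 CPM at 12 months (log2FC 0.23 ± 0.044, adjusted p = 0.000152), and Keap1 at 43.8 and 48.5 CPM at 3 months and 45.0 and 43.0 CPM at 12 months (log2FC -0.068 ± 0.068, adjusted p = 0.508); both were picked after their values were seen. The rises were not kept at 24 months. In 24 against 12 months 16 of the 27 genes fell and 6 rose (median log2FC -0.31). Slc7a11 was at 8.21 and 10.2 CPM at 24 months (log2FC -2.16 for 24 minus 12 months, adjusted p = 3.84e-08), Nqo1 at 14.8 and 13.6 CPM (log2FC -1.54 for 24 minus 12 months, adjusted p = 1.06e-13) and Srxn1 at 91.3 and 95.8 CPM (log2FC -0.99 for 24 minus 12 months, adjusted p = 2.41e-16), values near those at 3 months. Hmox1 fell only part of the way, to 590.3 and 619 CPM (log2FC -0.46 for 24 minus 12 months, adjusted p = 3.52e-09), and Gpx3 rose to 960.5 and 957 CPM (log2FC 0.90 for 24 minus 12 months, adjusted p = 1.77e-15).

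**Figure D3:**
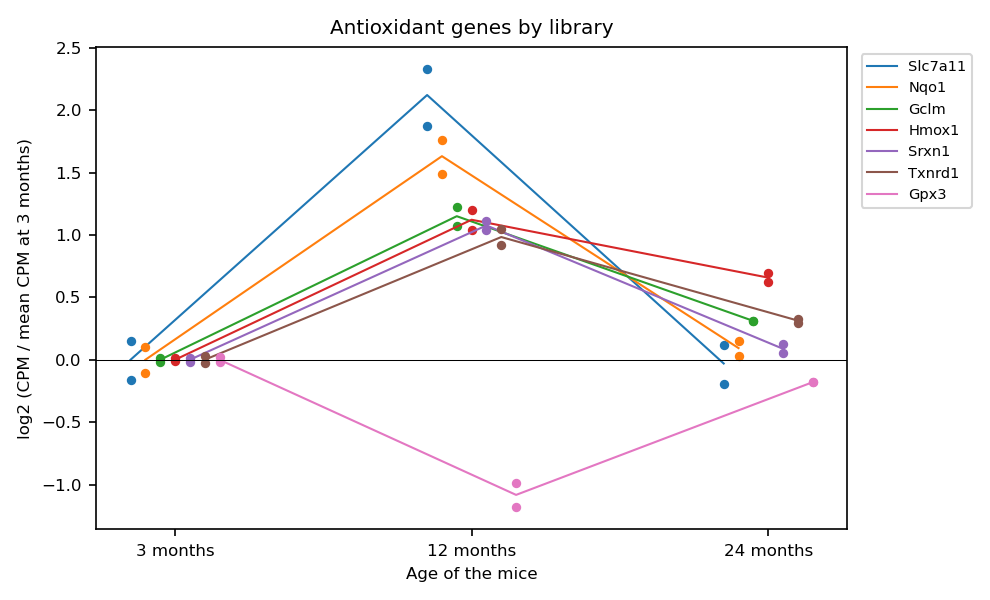
Level of 7 antioxidant genes in each fibroblast library (points, 2 per age) at 3, 12 and 24 months, as log2 of CPM over the mean CPM at 3 months, with lines through the means. Slc7a11, Nqo1, Gclm, Hmox1, Srxn1 and Txnrd1 peak at 12 months and the secreted peroxidase gene Gpx3 is lowest there.

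Mitotic genes fell together. All 36 tested members were lower at 12 months (0 rose, 0 fell by 2-fold or more), with log2FC between -0.80 and -0.37 and a median of -0.63, against 15.5% lower among all genes tested. The CCAAT box, CCAAT on both strands, lies in the promoter windows of 24 of 31 matched mitotic genes (77.4%), against 37.5% of all genes. Stretches of a cytokinesis gene and a spindle checkpoint gene are shown with the matches in capitals, where ATTGG is the box on the opposite strand.
Racgap1: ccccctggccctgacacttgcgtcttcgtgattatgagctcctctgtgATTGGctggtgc
Bub1: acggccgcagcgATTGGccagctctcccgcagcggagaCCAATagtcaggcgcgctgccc
They lie at chr15:99651657-99651716 (minus strand) and chr2:127831880-127831939 (minus strand).

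Mki67 (ENSMUSG00000031004), the proliferation antigen, fell from 284 and 273 CPM at 3 months to 162 and 176 CPM at 12 months (log2FC -0.72 ± 0.059, adjusted p = 6.89e-09). Ccna2, cyclin A2, fell from 90.7 and 88.3 CPM at 3 months to 49.9 and 52.8 CPM at 12 months (log2FC -0.80 ± 0.088, adjusted p = 5.25e-06), and Cdk1, the mitotic kinase, from 77.3 and 75.2 CPM at 3 months to 48.4 and 52.0 CPM at 12 months (log2FC -0.60 ± 0.06, adjusted p = 1.54e-09). Bub1 fell from 43.6 and 44.3 CPM at 3 months to 25.4 and 26.3 CPM at 12 months (log2FC -0.77 ± 0.078, adjusted p = 2.18e-09). In each of the 4 genes both 12-month libraries lay below both 3-month libraries, where 62.4% of all genes tested had no overlap between the ages. DNA replication genes fell in 28 of 41 tested members (0 rose, 1 fell by 2-fold or more, median log2FC -0.38). Among them the licensing factor gene Mcm3 fell from 97.8 and 96.8 CPM at 3 months to 73.9 and 73.7 CPM at 12 months (log2FC -0.40 ± 0.062, adjusted p = 6.9e-06) and the sliding clamp gene Pcna from 120.2 and 117 CPM at 3 months to 87.1 and 98.0 CPM at 12 months (log2FC -0.35 ± 0.054, adjusted p = 3.83e-06). E2f8, a repressor that limits the S phase programme, fell from 17.2 and 18.0 CPM at 3 months to 8.71 and 9.30 CPM at 12 months (log2FC -0.96 ± 0.14, adjusted p = 3.38e-06). Ccnd1 went against this trend, with the rise given above.

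Targets of p53 rose in 23 of 31 tested genes (1 by 2-fold or more) and fell in 3, with a median log2FC of 0.45. Cdkn1a (ENSMUSG00000023067), which encodes the inhibitor p21, rose from 351 and 347 CPM at 3 months to 560.5 and 588 CPM at 12 months (log2FC 0.72 ± 0.042, adjusted p = 4.73e-15). Mdm2, the ligase that degrades p53, rose from 176 and 168 CPM at 3 months to 257 and 283 CPM at 12 months (log2FC 0.65 ± 0.046, adjusted p = 6.97e-13), and Ccng1, cyclin G1, from 479 and 461 CPM at 3 months to 751 and 791 CPM at 12 months (log2FC 0.71 ± 0.042, adjusted p = 6.24e-15). Perp, a p53 target in cell adhesion and death, had the largest rise of the list, from 2.38 and 3.45 CPM at 3 months to 10.8 and 11.8 CPM at 12 months (log2FC 1.97 ± 0.18, adjusted p = 1.4e-10). Trp53 itself, picked after its values were seen, was at 114 and 108 CPM at 3 months and 127 and 127 CPM at 12 months (log2FC 0.19 ± 0.052, adjusted p = 0.00464). The classical senescence genes of the Cdkn2 locus did not pass. Cdkn2a was at 1.26 and 2.35 CPM at 3 months and 1.66 and 2.14 CPM at 12 months (log2FC 0.094 ± 0.30, adjusted p = 0.86), where the ages overlapped, and Cdkn2b was at 6.92 and 6.18 CPM at 3 months and 8.42 and 8.51 CPM at 12 months (log2FC 0.37 ± 0.15, adjusted p = 0.0586).

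Of 19 cell cycle inhibitors and senescence markers 4 rose and 9 fell (median log2FC -0.14). Cdkn1b, which encodes p27, fell from 63.0 and 63.5 CPM at 3 months to 42.1 and 41.6 CPM at 12 months (log2FC -0.59 ± 0.061, adjusted p = 2e-09). Lmnb1, a nuclear lamin gene whose loss is used as a senescence marker, fell from 66.3 and 68.7 CPM at 3 months to 43.4 and 46.3 CPM at 12 months (log2FC -0.59 ± 0.064, adjusted p = 9.61e-09). Hmgb2, a chromatin protein that is high in dividing cells, fell from 83.3 and 77.6 CPM at 3 months to 45.4 and 55.0 CPM at 12 months (log2FC -0.68 ± 0.07, adjusted p = 1.05e-08). From 12 to 24 months 6 of the 36 mitotic genes fell further and 0 rose, and of the p53 targets 1 rose and 11 fell. Mki67 was at 156 and 138 CPM at 24 months (log2FC -0.20 for 24 minus 12 months, adjusted p = 0.0227) and Cdkn1a at 531 and 551 CPM (log2FC -0.086 for 24 minus 12 months, adjusted p = 0.157).

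Collagen genes fell in 24 of 38 tested members (6 by 2-fold or more) and rose in 1, with a median log2FC of -0.41. The median is the same when Col9a1, which had 0 counts at 12 months, is set to its bound. Col3a1, the collagen of elastic tissues, fell from 13350 and 13580 CPM at 3 months to 7251 and 6649 CPM at 12 months (log2FC -0.95 ± 0.038, adjusted p = 1.21e-18). Col1a1 and Col1a2, the chains of type I collagen, fell with log2FC of -0.56 ± 0.04 and -0.60 ± 0.034. Col11a1, which helps to start thin fibrils, fell from 49.5 and 48.4 CPM at 3 months to 5.50 and 8.06 CPM at 12 months (log2FC -2.83 ± 0.093, adjusted p = 5.01e-20). Col2a1, the riser, stayed at a trace level, with 0.270 and 0.527 CPM at 3 months and 1.66 and 2.04 CPM at 12 months (log2FC 2.22 ± 0.42, adjusted p = 0.000122).

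Elastic fibre genes split. Of 29 genes for crosslinking and elastic fibres 18 fell (5 by 2-fold or more) and 7 rose (1 by 2-fold or more), with a median log2FC of -0.29. Eln, elastin itself, fell from 283 and 310.1 CPM at 3 months to 77.2 and 62.5 CPM at 12 months (log2FC -2.09 ± 0.089, adjusted p = 4.58e-08). Fbn2, a fibrillin of developing microfibrils, fell from 21.9 and 24.1 CPM at 3 months to 2.41 and 2.44 CPM at 12 months (log2FC -3.25 ± 0.13, adjusted p = 1.73e-18). Mfap4, a microfibril-associated protein, fell from 43.8 and 45.4 CPM at 3 months to 15.1 and 12.99 CPM at 12 months (log2FC -1.67 ± 0.085, adjusted p = 1.93e-16). Ltbp2 (ENSMUSG00000002020), a microfibril protein of the latent TGF-beta binding family, rose from 60.8 and 59.2 CPM at 3 months to 207 and 228 CPM at 12 months (log2FC 1.86 ± 0.051, adjusted p = 8.2e-23). Efemp1, which encodes fibulin 3, rose from 197 and 202 CPM at 3 months to 379 and 343 CPM at 12 months (log2FC 0.86 ± 0.046, adjusted p = 7.39e-16). At 24 months Eln was at 57.0 and 59.2 CPM (log2FC -0.26 for 24 minus 12 months, adjusted p = 0.105) and Ltbp2 at 219.5 and 223 CPM (log2FC 0.022 for 24 minus 12 months, adjusted p = 0.809), while Col3a1 came back to 11000 and 11420 CPM (log2FC 0.69 for 24 minus 12 months, adjusted p = 3.27e-15).

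Matricellular genes, whose products signal from the matrix, fell in 14 of 24 tested members (5 by 2-fold or more) and rose in 2 (median log2FC -0.47). Fn1, fibronectin, fell from 5656 and 5766 CPM at 3 months to 3706 and 3599 CPM at 12 months (log2FC -0.64 ± 0.035, adjusted p = 7.88e-16). Cthrc1, a marker of activated cardiac fibroblasts, fell from 7.15 and 8.10 CPM at 3 months to 1.66 and 1.59 CPM at 12 months (log2FC -2.22 ± 0.18, adjusted p = 1.93e-11), and Spon1, spondin 1, from 120.3 and 126 CPM at 3 months to 55.9 and 49.1 CPM at 12 months (log2FC -1.23 ± 0.058, adjusted p = 2.66e-17). Proteoglycan and hyaluronan genes fell in 15 of 29 and rose in 6 (median log2FC -0.29). The small proteoglycan gene Lum fell from 366 and 363 CPM at 3 months to 228 and 223 CPM at 12 months (log2FC -0.69 ± 0.043, adjusted p = 2.1e-14). The large proteoglycan gene Vcan rose from 712 and 677 CPM at 3 months to 1083 and 1142 CPM at 12 months (log2FC 0.68 ± 0.041, adjusted p = 1.21e-14), and the hyaluronan receptor gene Cd44 rose from 275 and 269.8 CPM at 3 months to 381 and 401 CPM at 12 months (log2FC 0.52 ± 0.041, adjusted p = 6.08e-12). Metalloproteinases and their inhibitors fell in 15 of 34 and rose in 4 (median log2FC -0.16). The risers included Mmp10, stromelysin 2, from 1.89 and 1.92 CPM at 3 months to 8.25 and 8.21 CPM at 12 months (log2FC 2.11 ± 0.19, adjusted p = 1.99e-10), Mmp12, an elastase, with a log2FC of 0.75 ± 0.067, and the inhibitor gene Timp1, with 0.57 ± 0.044.

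**Figure D4:**
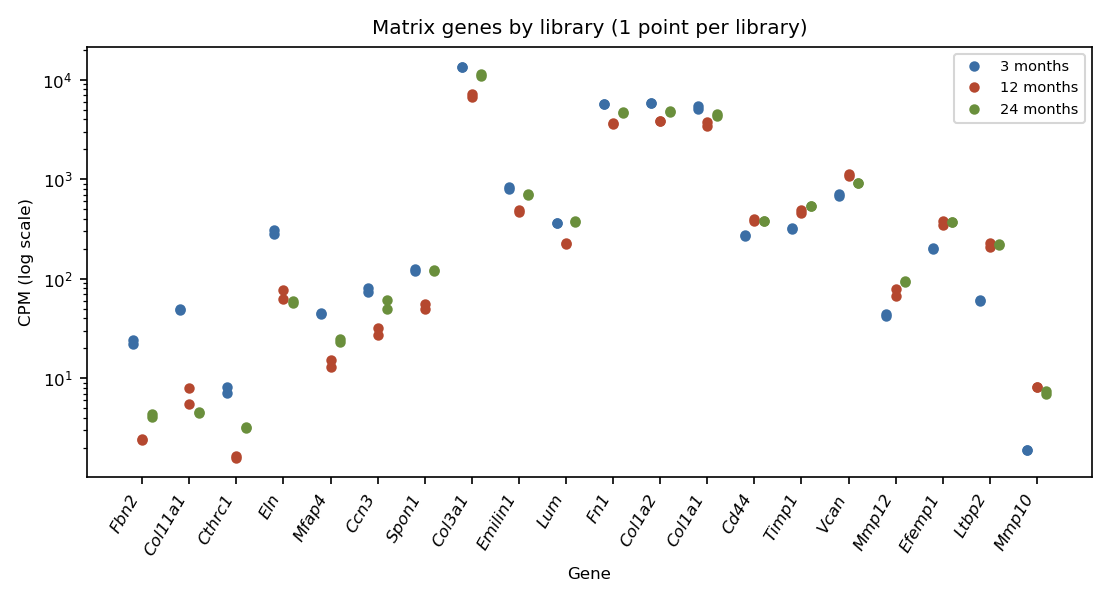
CPM on a log scale of 20 matrix genes in each fibroblast library (2 points per age) at 3 months (blue), 12 months (red) and 24 months (green). Of these genes 13 were lower and 7 higher at 12 than at 3 months, and Eln and Col11a1 were also low at 24 months.

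Contractile genes of smooth muscle, which activated fibroblasts share, fell in 11 of 22 tested members and rose in 4 (median log2FC -0.13). Acta2, the actin used to mark myofibroblasts and picked after its values were seen, was at 1174 and 1283 CPM at 3 months and 1087 and 1138 CPM at 12 months (log2FC -0.14 ± 0.041, adjusted p = 0.008). Myl9, a myosin light chain, fell from 99.3 and 106 CPM at 3 months to 66.2 and 67.0 CPM at 12 months (log2FC -0.62 ± 0.05, adjusted p = 1.31e-11), and Mylk, the kinase of that chain, from 20.3 and 24.0 CPM at 3 months to 10.7 and 7.71 CPM at 12 months (log2FC -1.28 ± 0.12, adjusted p = 6.07e-09). Some markers of pericytes and vascular smooth muscle fell too. Of 7 tested 4 fell and 0 rose (3 more were too low to test, and Higd1b had 0 counts in the 4 libraries), and their summed level was 180.1 and 210 CPM at 3 months and 115 and 104 CPM at 12 months. Most of this sum and of its fall came from Notch3 and Mcam. Notch3 was at 140 and 159 CPM at 3 months and 94.0 and 84.2 CPM at 12 months. Rgs5 (adjusted p = 0.607) and Abcc9 (adjusted p = 0.821) did not pass. Myh11 was higher at 12 months but did not pass either (log2FC 0.54 ± 0.21, adjusted p = 0.0576). The part of these markers in the fall of the contractile genes was not tested.

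Chemokine genes rose more often than they fell. Of 21 tested 10 rose (3 by 2-fold or more) and 3 fell, with a median log2FC of 0.14, and 6 rose when either one of the 12-month libraries was left out. Cxcl1, a neutrophil attractant, rose from 127 and 104 CPM at 3 months to 243 and 256 CPM at 12 months (log2FC 1.10 ± 0.081, adjusted p = 1.11e-06). Ccl7, a monocyte attractant, rose from 306 and 302 CPM at 3 months to 420.3 and 431 CPM at 12 months (log2FC 0.49 ± 0.042, adjusted p = 5.37e-11). The related gene Ccl2 rose with a log2FC of 0.32 ± 0.041. Cxcl12, the stromal retention signal picked after its values were seen, fell from 924 and 917 CPM at 3 months to 748 and 635 CPM at 12 months (log2FC -0.41 ± 0.066, adjusted p = 0.000489). Targets and subunits of NF-kappaB rose in 10 of 25 and fell in 1 (median log2FC 0.21), among them Nfkbia, the inhibitor it induces, from 37.5 and 43.3 CPM at 3 months to 57.3 and 52.7 CPM at 12 months (log2FC 0.45 ± 0.074, adjusted p = 1.69e-05), and Sod2, mitochondrial superoxide dismutase, from 159 and 152 CPM at 3 months to 265 and 256 CPM at 12 months (log2FC 0.75 ± 0.047, adjusted p = 4.05e-14). Of 16 macrophage markers 6 rose and 2 fell. Their summed level was 165 and 191 CPM at 3 months and 279 and 263 CPM at 12 months, and most of this rise came from Lyz2. Lyz2, lysozyme, rose from 78.2 and 94.3 CPM at 3 months to 164 and 157 CPM at 12 months (log2FC 0.89 ± 0.062, adjusted p = 6.85e-11), while C1qa fell from 7.20 and 9.11 CPM at 3 months to 5.56 and 4.88 CPM at 12 months, a call that ended without the second 3-month library (adjusted p = 0.0654). C1qb, the other faller and named after its values were seen, went from 8.54 and 8.29 CPM at 3 months to 5.79 and 6.82 CPM at 12 months (log2FC -0.41 ± 0.14, adjusted p = 0.0258). The part of macrophage RNA in the chemokine values was not tested.

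Secreted factors of the senescence phenotype showed no common direction, with 8 of 29 up and 6 down (median log2FC 0.01). Ereg, an EGF receptor ligand, rose from 200.3 and 192 CPM at 3 months to 315 and 344 CPM at 12 months (log2FC 0.75 ± 0.044, adjusted p = 8.4e-15). Csf3, the granulocyte growth factor, rose from a trace level, 0.720 and 0.479 CPM at 3 months and 2.23 and 2.69 CPM at 12 months (log2FC 2.02 ± 0.35, adjusted p = 3.19e-05). Tnfrsf11b, the decoy receptor osteoprotegerin, fell from 77.3 and 90.6 CPM at 3 months to 43.1 and 40.2 CPM at 12 months (log2FC -1.01 ± 0.076, adjusted p = 1.17e-10). Igf1 fell from 81.1 and 86.4 CPM at 3 months to 53.4 and 44.9 CPM at 12 months (log2FC -0.77 ± 0.065, adjusted p = 5.54e-11), and of 8 tested IGF-binding and Pappa genes 4 fell, 1 rose and the median log2FC was -0.98. Igfbp4 fell from 779 and 798 CPM at 3 months to 403 and 339 CPM at 12 months (log2FC -1.09 ± 0.14, adjusted p = 0.00458), and its protease gene Pappa fell from 66.5 and 74.2 CPM at 3 months to 40.4 and 31.8 CPM at 12 months (log2FC -0.97 ± 0.078, adjusted p = 1.39e-09). Igfbp6 was the one that rose, from 15.3 and 16.1 CPM at 3 months to 32.3 and 33.5 CPM at 12 months (log2FC 1.07 ± 0.093, adjusted p = 7.2e-11). Igfbp2 fell from 16.0 and 24.1 CPM at 3 months to 7.45 and 6.17 CPM at 12 months (log2FC -1.56 ± 0.26, adjusted p = 0.00407), but its call ended without the second 12-month library (adjusted p = 0.0685).

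Among 34 growth factors and receptors 6 rose and 14 fell (median log2FC -0.15). Fgf10, a mesenchymal signal to neighbouring epithelium, rose from 0.989 and 1.10 CPM at 3 months to 5.04 and 5.52 CPM at 12 months (log2FC 2.33 ± 0.26, adjusted p = 1.32e-08), and Fgf2, a fibroblast mitogen, from 226 and 216 CPM at 3 months to 369 and 392 CPM at 12 months (log2FC 0.79 ± 0.045, adjusted p = 4.59e-15). Kitl and Kit moved in opposite directions, with the ligand gene rising from 109.8 and 106 CPM at 3 months to 154 and 162 CPM at 12 months (log2FC 0.55 ± 0.049, adjusted p = 8.91e-11) and the receptor gene falling from 13.8 and 19.7 CPM at 3 months to 3.44 and 3.18 CPM at 12 months (log2FC -2.34 ± 0.21, adjusted p = 8.6e-07).

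Nr4a3 (ENSMUSG00000028341), the nuclear receptor that the study manipulates, belongs to the immediate early genes, which are switched on within minutes of a stimulus. It rose from 2.38 and 2.11 CPM at 3 months to 3.72 and 4.88 CPM at 12 months (log2FC 0.94 ± 0.24, adjusted p = 0.00277). The call ended without the second 12-month library (adjusted p = 0.0916) and held without each of the other 3. Its relatives did not pass. Nr4a1 was at 34.7 and 36.6 CPM at 3 months and 32.7 and 39.6 CPM at 12 months (log2FC 0.026 ± 0.14, adjusted p = 0.923) and Nr4a2 at 2.79 and 3.31 CPM at 3 months and 3.04 and 3.08 CPM at 12 months (log2FC 0.0095 ± 0.22, adjusted p = 0.982), and in both the ages overlapped. Of all 21 immediate early genes tested 5 rose and 11 fell (median log2FC -0.12). Egr1, a zinc-finger factor induced by serum, fell from 579 and 598 CPM at 3 months to 386 and 396 CPM at 12 months (log2FC -0.59 ± 0.04, adjusted p = 2.6e-13), and Zfp36, which destabilises cytokine mRNA, from 128 and 141 CPM at 3 months to 82.5 and 81.7 CPM at 12 months (log2FC -0.71 ± 0.052, adjusted p = 1.3e-12). Fosl1, a FOS family member, rose from 4.72 and 4.60 CPM at 3 months to 12.0 and 12.4 CPM at 12 months (log2FC 1.39 ± 0.15, adjusted p = 5.72e-09), and Klf4 rose from 66.4 and 65.8 CPM at 3 months to 112 and 114 CPM at 12 months (log2FC 0.78 ± 0.056, adjusted p = 9.69e-13).

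Sterol synthesis genes fell in 18 of 22 and rose in 0 (median log2FC -0.39). Hmgcs1, which makes the precursor HMG-CoA, fell from 167 and 179 CPM at 3 months to 109 and 106 CPM at 12 months (log2FC -0.69 ± 0.056, adjusted p = 4.84e-11), and Insig1, its sterol-regulated brake, from 146 and 145 CPM at 3 months to 95.5 and 89.6 CPM at 12 months (log2FC -0.66 ± 0.053, adjusted p = 1.36e-11). Respiratory chain and ATP synthase genes rose in 21 of 36 and fell in 0 (median log2FC 0.17), though 13 rose without the second 12-month library. Ndufa10 of complex I rose from 60.5 and 59.5 CPM at 3 months to 84.7 and 81.5 CPM at 12 months (log2FC 0.47 ± 0.054, adjusted p = 3.01e-08), and Atp5b of the ATP synthase from 716 and 698 CPM at 3 months to 827 and 871 CPM at 12 months (log2FC 0.26 ± 0.04, adjusted p = 3.51e-06). In 24 against 12 months 0 of these 36 rose and 21 fell, and 9 of the 22 sterol genes rose and 0 fell.

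Glycolytic genes were mixed, with 6 of 22 up and 4 down (median log2FC 0.02). Pkm, pyruvate kinase, rose from 1395 and 1355 CPM at 3 months to 1845 and 1886 CPM at 12 months (log2FC 0.44 ± 0.037, adjusted p = 3.32e-11). Genes of the unfolded protein and integrated stress responses fell in 13 of 22 and rose in 0 (median log2FC -0.19). Hspa5, the main chaperone of the endoplasmic reticulum, fell from 1692 and 1602 CPM at 3 months to 1364 and 1432 CPM at 12 months (log2FC -0.24 ± 0.038, adjusted p = 1.05e-05), and Asns, asparagine synthetase, from 66.7 and 74.5 CPM at 3 months to 44.8 and 47.5 CPM at 12 months (log2FC -0.61 ± 0.061, adjusted p = 1.33e-09). Lysosomal genes fell in 13 of 29 and rose in 6 (median log2FC -0.13), and 8 fell without the second 12-month library. Sqstm1, the autophagy receptor p62 and a known NRF2 target, was among the risers, from 376 and 394 CPM at 3 months to 517 and 517 CPM at 12 months (log2FC 0.43 ± 0.046, adjusted p = 1.43e-08).

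Imprinted genes, of which many promote fetal growth, fell in 13 of 30 (7 by 2-fold or more) and rose in 5 (median log2FC -0.46). Peg10, a retrotransposon-derived gene, fell from 1194 and 1211 CPM at 3 months to 552 and 524 CPM at 12 months (log2FC -1.16 ± 0.056, adjusted p = 2e-11), and Plagl1, a factor that controls other imprinted genes, from 15.02 and 14.3 CPM at 3 months to 6.13 and 5.72 CPM at 12 months (log2FC -1.31 ± 0.11, adjusted p = 1.98e-11). H19, a noncoding RNA, fell from a low level, 2.43 and 2.40 CPM at 3 months and 0.745 and 0.697 CPM at 12 months (log2FC -1.74 ± 0.27, adjusted p = 6.79e-06). Igf2r, which removes IGF2 from the cell surface, rose from 478 and 467 CPM at 3 months to 584 and 615 CPM at 12 months (log2FC 0.34 ± 0.039, adjusted p = 2.3e-08). The 6 tested oncofetal genes split evenly. Igf2bp2, an mRNA-binding protein, fell from 58.6 and 58.5 CPM at 3 months to 32.0 and 30.1 CPM at 12 months (log2FC -0.91 ± 0.063, adjusted p = 3.21e-13), while the chromatin gene Hmga1 rose from 26.0 and 27.2 CPM at 3 months to 49.2 and 56.7 CPM at 12 months (log2FC 1.00 ± 0.073, adjusted p = 1.35e-12) and Hmga2 rose from 7.15 and 5.66 CPM at 3 months to 9.28 and 12.7 CPM at 12 months (log2FC 0.79 ± 0.13, adjusted p = 3.37e-05). At 24 months Hmga1 was back at 22.8 and 22.4 CPM (log2FC -1.23 for 24 minus 12 months, adjusted p = 3.8e-14).

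Markers of the labelled cell type were present. All 11 fibroblast markers were tested, and their summed level was 30030 and 30560 CPM at 3 months and 20290 and 19260 CPM at 12 months. Most of this sum and of its fall came from Col3a1, Col1a1 and Col1a2, which are also counted among the collagens above. Dcn, the next highest marker, was at 2164 and 2203 CPM at 3 months and 1852 and 1703 CPM at 12 months. Of the 11 markers 8 fell and 3 rose. Tcf21, a factor of cardiac fibroblasts, fell from 443 and 462 CPM at 3 months to 367 and 320.4 CPM at 12 months (log2FC -0.40 ± 0.048, adjusted p = 1.53e-07). The risers, named after their values were seen, were the PDGF receptor gene Pdgfra (log2FC 0.21 ± 0.046), the collagen receptor gene Ddr2 (0.21 ± 0.039) and Pdpn, podoplanin (0.22 ± 0.041). Of 25 identity factors 6 rose and 9 fell (median log2FC -0.03), in a list that shares Thy1, Tcf21, Pdgfra, Ddr2 and Pdpn with these markers. Among them Tbx20, a cardiac T-box factor, rose from 1100 and 1057 CPM at 3 months to 1341 and 1378 CPM at 12 months (log2FC 0.33 ± 0.038, adjusted p = 1.6e-08), and the surface gene Cd34 rose from 101 and 111 CPM at 3 months to 162 and 162 CPM at 12 months (log2FC 0.61 ± 0.051, adjusted p = 2.31e-11).

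Traces of other cell types differed with age. Cardiomyocyte markers rose in 10 of 15 tested genes (9 by 2-fold or more) and fell in 0, with a summed level of 12.95 and 18.5 CPM at 3 months and 47.4 and 33.0 CPM at 12 months. Myh6, the cardiac myosin heavy chain, rose from 2.16 and 4.46 CPM at 3 months to 14.1 and 10.2 CPM at 12 months (log2FC 1.88 ± 0.30, adjusted p = 0.00275), and Myl7 had 0 counts in the 4 libraries. Endothelial markers fell in 8 of 12 and rose in 0, with a summed level of 298 and 357 CPM at 3 months and 217 and 198 CPM at 12 months. Without the second 3-month library 5 of the 12 fell, and likewise 5 without the second 12-month library. Esam, an endothelial adhesion gene, fell from 7.55 and 9.01 CPM at 3 months to 4.93 and 4.48 CPM at 12 months (log2FC -0.82 ± 0.15, adjusted p = 6.6e-05). Epicardial keratin genes were at traces, with Krt8 at 2.16 and 1.92 CPM at 3 months and 0.630 and 0.0995 CPM at 12 months (log2FC -2.53 ± 0.42, adjusted p = 1.76e-05), and 5 of the 12 epicardial markers fell and 1 rose. Only 2 of the 12 fell without the second 12-month library, and 3 without the first 3-month library. Krt18, Bnc1, Lrrn4, Gpm6a, Msln and Upk1b had 0 to 8 counts in each 3- and 12-month library. These epicardial genes were tested because of their neonatal level (means of 7.74 to 47.2 CPM), and only Krt18 of them was called. The rest had too few counts at 3 and 12 months to show a change. None of the 10 lymphocyte and 6 adipocyte markers reached the level needed for a test. The part of these traces in the other changes was not tested.

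LacZ control cells of 18 and 3 months gave a comparison of age that shares no library with the one above, in a table scaled and fitted on its own. Neonatal LacZ cells and cells given reprogramming factors were also in that fit. The file heads the columns of the older cells as 15 months, where the labels give 18. Of 16368 genes tested there, 10.8% rose and 12.2% fell. The 2 LacZ libraries of 3 months differed more from each other than other pairs did (chi-square per degree of freedom of 19.6, against 4 for the 18-month pair), so several counts are also given with libraries left out. Of genes tested in both tables, 2092 rose at 12 months in the fibroblasts and 612 of these (29.3%, or 35.5% of the 1725 that rose in LacZ cells) rose at 18 months in the LacZ cells, where 11.2% of all shared genes rose. Among the 2474 that fell, 906 (36.6%, or 46% of the 1968 that fell in LacZ cells) fell there, where 12.8% of all shared genes fell. The genes that crossed over numbered 161 from up to down and 203 from down to up. Without the first 3-month LacZ library 619 rose and 894 fell in both, with 254 and 314 crossing, and without the second 703 and 922, with 134 and 189 crossing. Without the first 18-month LacZ library 382 rose and 671 fell in both, with 85 and 120 crossing, where 6.1% and 7.46% of all shared genes rose and fell.

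Interferon genes were lower with age in LacZ cells too. Of the 45 effectors 44 fell and 1, Ifi27, rose at 18 months, with a median log2FC of -3.28 (-3.23 and -3.25 without the first and the second 3-month LacZ library). Isg15 was at 288 and 336 CPM at 3 months and 12.3 and 18.8 CPM at 18 months (log2FC -4.33 ± 0.20, adjusted p = 4.28e-08). Antioxidant genes rose in 12 of 27 and fell in 7 (10 and 9 without the first 3-month LacZ library, 15 and 5 without the second), with Nqo1 at 54.2 and 71.7 CPM at 3 months and 264 and 237 CPM at 18 months (log2FC 1.99 ± 0.11, adjusted p = 3.71e-13) and Gpx3 at 416 and 511 CPM at 3 months and 133 and 156 CPM at 18 months (log2FC -1.68 ± 0.11, adjusted p = 1.06e-10). Targets of p53 rose in 12 of 31 and fell in 4 (13 and 4 without the first 3-month LacZ library, 12 and 3 without the second, 8 and 2 without the first 18-month library). Elastin fell here too, with 11.2 and 10.6 CPM at 3 months and 1.56 and 1.55 CPM at 18 months (log2FC -2.80 ± 0.20, adjusted p = 4.8e-11).

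Mitotic genes gave few calls in LacZ cells. In LacZ cells 2 of 36 rose and 0 fell (5 and 2 without the first 3-month library, 8 and 0 without the second), with a median log2FC of 0.13, and DNA replication genes rose in 20 of 41 and fell in 1 (18 and 2 without the first 3-month library, 25 and 1 without the second). Chemokine genes had 1 of 21 up and 15 down in LacZ cells (0 and 16 without the first 3-month library, 0 and 12 without the second), among them Ccl11, at 5.24 and 7.50 CPM at 3 months and 1.27 and 2.42 CPM at 18 months (log2FC -1.79 ± 0.34, adjusted p = 0.00026). Contractile genes rose in 14 of 22 and fell in 0 (16 and 0 without the first 3-month library, 12 and 0 without the second). The 2 comparisons differ in the ages, in the delivery of LacZ and in the table, and the difference between them was not tested. Sex-linked genes were read in the fibroblast libraries only, so a difference in sex between the LacZ groups was not checked.

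**Figure D5:**
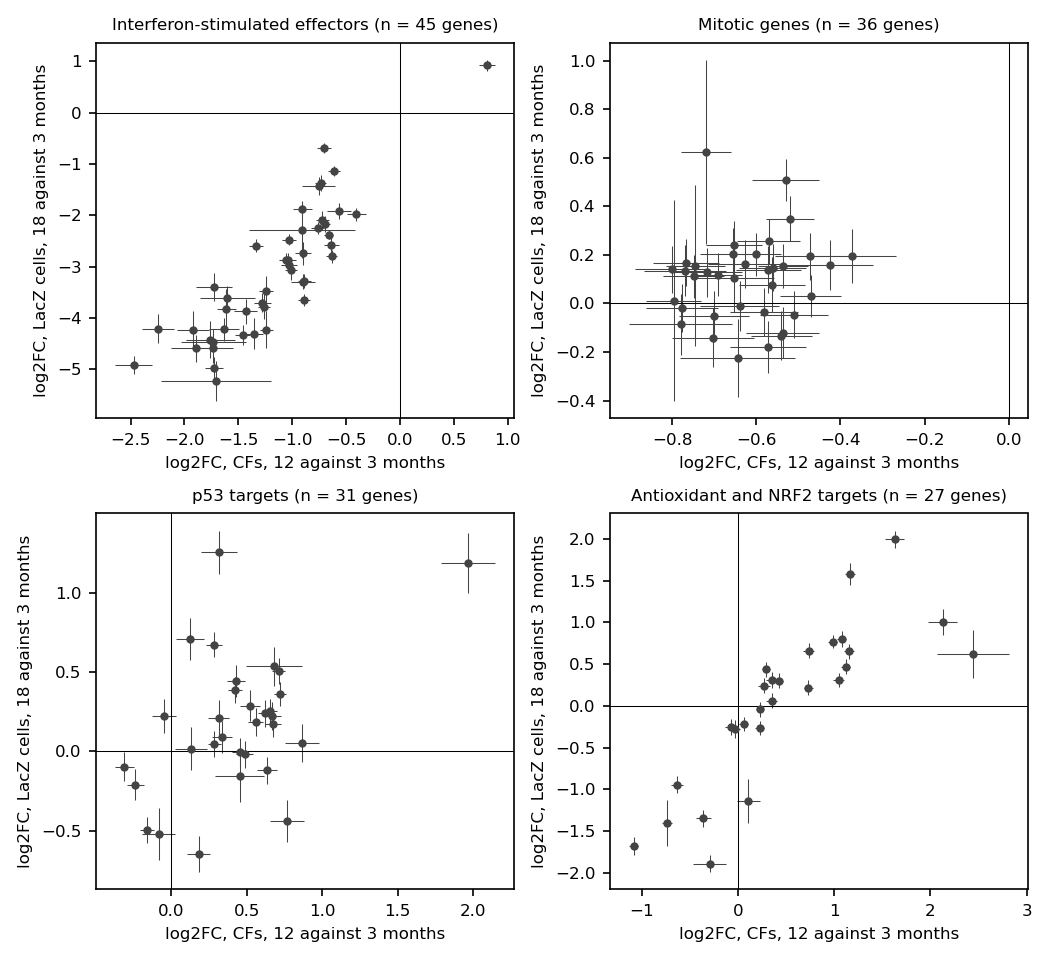
log2FC of each tested gene of 4 lists in fibroblasts (12 against 3 months, horizontal axis) and in LacZ cells (18 against 3 months, vertical axis), with standard errors as bars; axis ranges differ between panels. Interferon effectors other than Ifi27 lie below 0 on both axes, while mitotic genes lie below 0 on the horizontal axis and on both sides of 0 on the vertical one.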

How the data were processed

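The authors deposited raw read counts per gene for each library. Trimmomatic 0.36, featureCounts from Subread 1.5.1 and SAMtools are named in the submitters' processing notes, with build mm10; the aligner, the annotation release and the strand setting are not given in the sources used here. Without the strand setting, overlapping antisense genes cannot be told apart. The labels call the RNA polyA but their protocol describes rRNA depletion.

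Counts of the 8 fibroblast libraries (4 ages, 2 each) were filtered with filterByExpr, scaled by TMM and fitted with edgeR 4.0.16 in R 4.3.3 (quasi-likelihood, robust, 1 coefficient per age), with Benjamini-Hochberg adjustment over all genes tested and a threshold of 0.05. The standard error is the log2 fold change divided by the square root of the F statistic. The LacZ table was fitted the same way on its own. The fitting script was tested on simulated counts.

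Average log2 CPM was taken over the 8 fibroblast libraries, neonatal ones included. Genes named are the 12 largest rises and falls without overlap at an average log2 CPM of at least 3, up to 5 members of each list with the smallest p and 3 with the largest change, lists of at most 10 members in full, and a few fixed genes. The text uses a part of these, and some are not reported here. The members and lists were chosen with earlier results of these data known. Replicate numbers did not pair the libraries. Promoters came from the RefSeq table for GRCm38.p6, joined by symbol, since coordinates in the count table matched that build for 2.83% of 52073 shared genes. Alternatives were other scalings and filters, DESeq2 1.42.0, the 4 libraries alone, each library left out, a replicate block and a stricter threshold. Figures were drawn with matplotlib 3.10.9.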

Additional observations from a re-analysis of the deposited data

How the results depend on the processing

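No named gene called at 12 against 3 months changed sign under the alternatives run, while 8 that did not pass did, among them Cdkn2a, Nr4a1 and Nr4a2 (lowest adjusted p of the 8 in edgeR, 0.35). Scaling by library totals alone turned the excess of fallers at 12 months into 2406 higher and 2324 lower genes, and the excess of risers at 24 against 12 months into 1454 higher and 1967 lower genes. DESeq2 called 1414 genes higher at 12 than at 3 months, 130 of them by 2-fold or more, 737 lower at 24 than at 12 months, and 3 epicardial markers lower. Leaving out 1 library at a time gave 1402 to 1774 genes higher at 12 months. For 24 against 12 months it gave 1872 to 2597 calls, with 1161 to 1504 higher and 711 to 1093 lower. In LacZ cells it gave 2166 to 4632 calls, with 982 to 2288 higher and 1184 to 2344 lower, and the 4 libraries alone gave 2116, with 877 higher and 1239 lower. The cause of these shifts was not tested, beyond the smaller number of libraries in each fit. Among the gene lists, leaving out 1 library gave 6 to 8 chemokine genes higher, 13 to 20 respiratory chain genes higher, 8 to 11 lysosomal genes lower, 5 to 11 endothelial markers lower and 2 to 5 epicardial markers lower. At an adjusted p under 0.01, 3253 genes were called. Of 303 named genes, 279 kept their call without the second 12-month library, the fewest of any setting run.

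With the replicate number as a block, 4488 genes were called, against 4691 without it. Same-numbered 3- and 12-month libraries did not deviate together (correlation of deviations -0.161 over 9942 genes, which are not independent), so the numbers were not taken as pairs. With 4 libraries, crossed pairing called 5360 genes and same-number pairing 4410, an alternative added after the data were seen. The block ended the calls of Cdh5 and Flt1 among the named genes and moved no list count by over 1.5 times. With 2 libraries per age, and 17283764 to 22311330 counts in each, changes in genes below 1 CPM rest on few counts.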

Other observations

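Further lists were counted at 12 months, against 13% higher and 15.5% lower among all genes tested. Prostaglandin genes rose in 6 of 12 tested members and fell in 0, with a median log2FC of 0.26. Heat shock genes rose in 5 of 16 and fell in 2 (median 0.09). The aryl hydrocarbon receptor list rose in 4 of 8 and fell in 2 (median -0.02). Among signalling pathways, TGF-beta and activin genes rose in 5 of 25 and fell in 5 (median -0.02), BMP genes rose in 8 of 25 and fell in 11 (median -0.12), and Wnt genes rose in 5 of 27 and fell in 7 (median -0.20). Lipid handling genes rose in 7 of 22 and fell in 5 (median 0.07). Of 7 tested Schwann cell markers 2 rose and 1 fell, and of 7 tendon and cartilage markers 3 rose and 2 fell.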
